A study of Homo sapiens and Mus musculus with 29 samples.

Results

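Mucins are the large, heavily O-glycosylated proteins of mucus and of the epithelial cell surface. This account covers 10 mucin genes, chosen by symbol, out of the 58719 gene IDs measured in tumors and metastases of HPAF-II, an established human pancreatic ductal adenocarcinoma (PDAC) cell line of the classical subtype. Of the 10, 4 encode secreted gel-forming mucins (MUC2, MUC5AC, MUC5B and MUC6) and 6 encode mucins that are held at the membrane (MUC1, MUC4, MUC13, MUC16, MUC17 and MUC20). Mouse orthologs of 9 of them, matched by the same symbol, were examined in mouse PDAC cell lines of the KPC model.

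HPAF-II cells were grown in the pancreas of NSG mice, which lack functional lymphocytes, and RNA was sequenced when the mice reached a humane endpoint. The control cells carried Cas-9 and an empty vector (EV), and 3 control tumors were sequenced. The other groups carried a CRISPR knockout of the transcription factor HNF4G together with EV (HNF4G-KO, 4 tumors and 2 peritoneal metastases), Cas-9 together with a lentivirus for the transcription factor FOXA1 (FOXA1-OE, 3 tumors), or the knockout together with FOXA1 (HNF4G-KO + FOXA1-OE, 5 tumors from 4 mice and 4 metastases from 3 mice). By their labels, the 4 metastases of the last group lay in the spleen, in fat (metastases 2 and 3) and in the peritoneum. The knockout was made from pooled frameshift clones according to the study's methods. The KPC samples were 4 libraries of a wild-type tumor line and 4 libraries of the matched liver metastasis line, with no treatment. In all there were 29 libraries, 21 from HPAF-II and 8 from KPC lines.

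The values are RPKM, read numbers scaled to the size of the gene and to the depth of the library. Levels of different mucin genes can be set side by side only roughly, since reads from their repeats are hard to place. HPAF-II libraries held 33.1 to 69.6 M reads (M for mega), if the smallest step between values is 1 read. All 8 epithelial markers, such as EPCAM and KRT19, were at 1 RPKM or more in each of the 21 libraries. The label HNF4G-KO was not borne out by the HNF4G transcript, which was at 2.48 to 3.47 RPKM in control tumors and at 5.72 to 8.42 RPKM in tumors labeled HNF4G-KO. It was at 0.495 to 3.04 RPKM in FOXA1-OE tumors and at 1.69 to 7.09 RPKM in tumors labeled HNF4G-KO + FOXA1-OE, which overlap (log2 fold change 0.98, limma adjusted p = 0.122). A frameshift can leave an mRNA in place, so these values do not show the protein, and directions given for both groups follow their labels. FOXA1 mRNA was at 0.519 to 0.932 RPKM in control tumors but reached 6.32 and 8.18 RPKM in FOXA1-OE tumors 1 and 2. FOXA1-OE tumor 3, at 0.763 RPKM, was within the control range. Levels were 4.65 to 23.1 RPKM in tumors labeled HNF4G-KO + FOXA1-OE, whereas 3 of the 4 metastases with that label had 0.535, 1.30 and 1.55 RPKM. Tumors labeled HNF4G-KO had 1.26 to 1.87 RPKM, and the metastases of that group had 0.362 and 0.602 RPKM. FOXA1 was not called in FOXA1-OE against control tumors (log2 fold change 1.53, limma adjusted p = 0.84). Nor was it called in HNF4G-KO + FOXA1-OE against HNF4G-KO tumors (1.90, limma adjusted p = 0.123).

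Gel-forming mucins are exported in granules and join into the polymers that give mucus its gel. Membrane mucins stay on the apical surface of ductal and intestinal cells, where their extended outer parts form a barrier and their inner parts can pass on signals. A healthy pancreatic duct carries mainly MUC1 and some MUC6, whereas PDAC and its precursor lesions often gain MUC5AC, MUC4, MUC16 and MUC17, and MUC2 is the mucin of intestinal goblet cells.

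The 4 gel-forming genes form a cluster on chromosome 11 (GRCh38, GENCODE release 44). MUC6 (ENSG00000184956.15) spans chr11:1012823-1036718 on the minus strand, and MUC2 (chr11:1074875-1110511), MUC5AC (chr11:1157953-1201138) and MUC5B (chr11:1223066-1262172) follow on the plus strand, so that the cluster covers 249.4 kb. The membrane mucins lie elsewhere. MUC1 is at chr1:155185824-155192916, MUC13 at chr3:124905442-124953819 and MUC16 at chr19:8848844-9010390, each on the minus strand. MUC4 (chr3:195746765-195811973, minus strand) and MUC20 (chr3:195720884-195741123, plus strand) point toward each other, with 5.6 kb between their 3′ ends. MUC17 (ENSG00000169876.13) is at chr7:101020072-101058859 on the plus strand and is the last of a row of membrane mucin genes, with MUC12 ending 1.1 kb before it and MUC3A ending 1.2 kb before MUC12. Reads from the tandem repeats of mucin genes are hard to place, and how the authors counted reads with several matches is not given in the sources used here.

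RefSeq promoter sequences (GRCh38.p14, 250 bases before and 50 bases after a transcript start) were found for 6 of the 10 genes, with 8 promoters in all, and none for MUC5AC, MUC5B, MUC6 and MUC20. They were searched on both strands for the HNF4 motifs AAAGTCCA and AAAGTTCA and for the forkhead motifs TGTTTAC and TGTTTGC, forkhead being the family of FOXA1. Among 35116 promoters of this length, these motifs were in 1.14%, 1.01%, 3.42% and 3.89%. Of the 8 mucin promoters, the 1 that held any of these motifs was that of MUC13, with AAAGTCCA on the opposite strand at bases -51 to -44 from the start. The 250 bases before the start are shown for MUC17, since its mRNA differed most between groups, and for MUC13, with the motif (as read on the strand of the gene) in capitals. The first lies at chr7:101019831-101020080 (plus strand, 60% GC) and the second at chr3:124934752-124935001 (minus strand, 41.6% GC), inside the wider GENCODE span of MUC13.
MUC17: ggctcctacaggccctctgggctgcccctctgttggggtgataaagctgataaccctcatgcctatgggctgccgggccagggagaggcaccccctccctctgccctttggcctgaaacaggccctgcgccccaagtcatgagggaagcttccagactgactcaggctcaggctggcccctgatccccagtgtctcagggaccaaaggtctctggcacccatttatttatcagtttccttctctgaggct
MUC13: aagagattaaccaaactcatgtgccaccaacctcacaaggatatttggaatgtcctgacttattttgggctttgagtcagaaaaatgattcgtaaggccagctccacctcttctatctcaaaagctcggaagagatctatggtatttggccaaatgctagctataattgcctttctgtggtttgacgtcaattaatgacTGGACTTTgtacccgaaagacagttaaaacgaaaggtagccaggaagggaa
A match describes the letters in this window and does not show that a factor binds there.

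Across the 21 HPAF-II libraries, MUC1 had the highest median level, 135 RPKM, and ranged from 84.3 to 379 RPKM. It was followed by MUC5B (median 74.4, range 19.5 to 183 RPKM), MUC5AC (52.4, 2.47 to 164 RPKM) and MUC13 (45.1, 16.7 to 104 RPKM). The ranges of these 4 genes overlap, so that their order differs between libraries. A lower tier held MUC20 (median 15.5 RPKM, 8.99 to 26.2), MUC17 (8.47 RPKM, 0.0609 to 19.1), MUC4 (7.48 RPKM, 3.10 to 15.8), MUC6 (3.40 RPKM, 0.411 to 55.0) and MUC16 (3.28 RPKM, 0.514 to 10.4). MUC2 was close to absent, with 0 to 0.0919 RPKM and 0 in 1 library. The highest count was 37 of the commonest steps between values in a library, which are larger than the smallest step. The highest level of MUC17 was 313-fold above its lowest, and that of MUC20 was 2.92-fold above its lowest. MUC2 had a mean below 1 RPKM and was not tested, so that 9 of the 10 genes were.

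**Figure D1:**
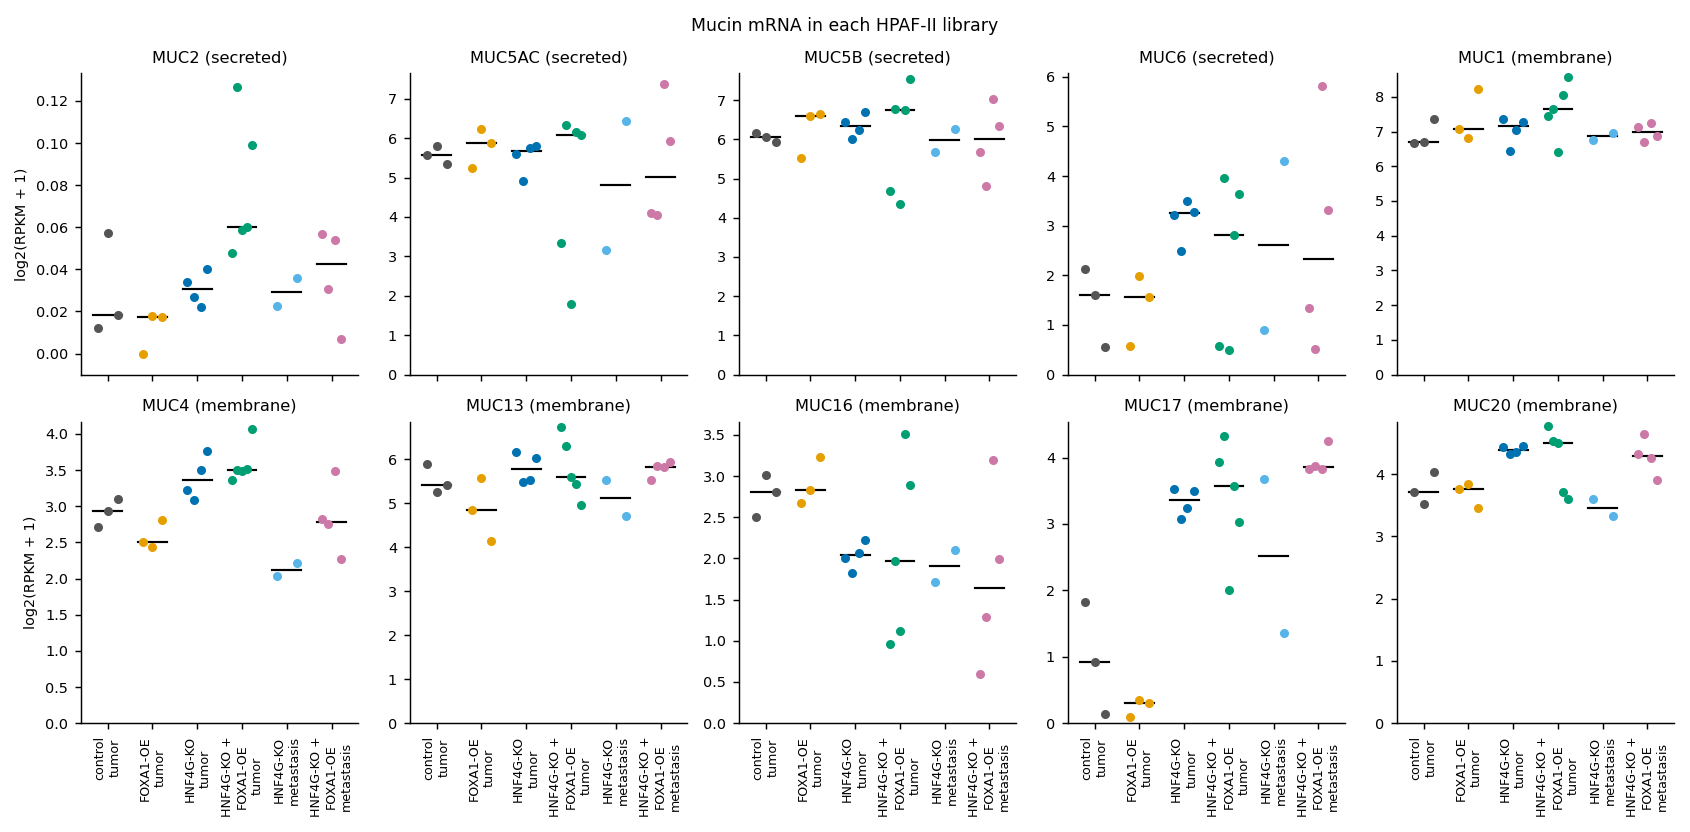
Level of each mucin gene as log2(RPKM + 1) in every HPAF-II library (dots), by group, with a black line at the group median and a separate vertical scale for each gene. MUC17 is at or below 2.55 RPKM in all control and FOXA1-OE tumors and between 3.02 and 19.1 RPKM in tumors with the knockout label, while MUC5AC, MUC5B and MUC6 spread widely within the HNF4G-KO + FOXA1-OE tumors and the metastases.

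The gel-forming mucins contributed 30.0% to 42.7% of the summed mucin RPKM in control tumors, 33.8% to 38.6% in tumors labeled HNF4G-KO and 30.8% to 48.7% in FOXA1-OE tumors. In tumors labeled HNF4G-KO + FOXA1-OE the share was between 9.55% and 38.1%, and it was between 17.4% and 57.7% in the 6 metastases. The groups overlap in this share.

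Whether the knockout label goes with a different set of mucins can be asked in 2 ways that share no tumor, with HNF4G-KO against control tumors and with HNF4G-KO + FOXA1-OE against FOXA1-OE tumors. Both come from a single limma fit of log2(RPKM + 1) over all primary tumors, so they share its estimate of the spread, and the tumors of 1 mouse were averaged. The methods describe a pool of knockout clones, and separate pools for the 2 comparisons are not stated. A trait of these clones and an effect of the knockout cannot be told apart in either comparison. MUC17, a membrane mucin of the brush border of enterocytes, was higher in both. Control tumors had 2.55, 0.896 and 0.102 RPKM, and the 4 tumors labeled HNF4G-KO had 10.5, 7.44, 8.47 and 10.2 RPKM. With FOXA1-OE, it was 0.0609, 0.276 and 0.233 RPKM without the knockout label and 14.3, 19.1, 3.02, 10.9 and 7.13 RPKM with it. Every tumor with the knockout label exceeded every tumor without it, including tumor 3 of the last group, which came from the same mouse as tumor 2. The control mean of 1.18 ± 1.25 RPKM (SD, n = 3) compares with 9.16 ± 1.46 RPKM (SD, n = 4) under the label HNF4G-KO, which is 2.37 as a log2 fold change (SE 0.32, limma adjusted p = 0.00105). With FOXA1-OE, 0.190 ± 0.114 RPKM (SD, n = 3) compares with 10.8 ± 2.93 RPKM (SD, n = 4 mice), which is 3.18 as a log2 fold change (SE 0.32, limma adjusted p = 0.00017). Log2 fold changes are on the log2(RPKM + 1) scale, which understates changes of genes at low levels, and with a pseudocount of 0.1 they were 3.50 and 5.16. MUC17 passed the filter on low values through its level in the groups with the knockout label, since its mean in FOXA1-OE tumors was under 1 RPKM. In bulk RNA, more cells with MUC17 and more MUC17 mRNA per cell cannot be told apart.

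Of the 9 mucin genes tested, MUC17 was the 1 called in tumors labeled HNF4G-KO against control, at an adjusted p under 0.05, where 12.2% of all 14269 genes tested were called, so that the number of calls among mucins was close to that over all genes. For 4 of the 9 the groups did not overlap, against 46.4% of all genes tested. These were MUC17, MUC6 and MUC20, which were higher, and MUC16, which was lower. In HNF4G-KO + FOXA1-OE against FOXA1-OE tumors, 2 of the 9 were called, MUC17 and MUC4, where 7.86% of all genes were called. The same 2 genes did not overlap between the mice of the groups, against 14.6% of all genes. The difference of the MUC17 effects with and without FOXA1-OE was 0.81 (SE 0.45, limma adjusted p = 0.66), with 0.035% of all genes called in that comparison and no mucin gene among them.

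MUC4, a membrane mucin that binds the receptor ERBB2, was at 4.71, 4.44 and 6.0 RPKM in FOXA1-OE tumors and at 9.34, 10.4, 10.2, 10.4 and 15.8 RPKM in tumors labeled HNF4G-KO + FOXA1-OE. The groups did not overlap, and the log2 fold change was 1.02 (SE 0.20, limma adjusted p = 0.00872). In a fit of these 2 groups alone the adjusted p was 0.0960, while the call was kept in the other 15 of 16 alternatives. Without FOXA1 the corresponding values were 5.55, 6.64 and 7.61 RPKM in control tumors and 8.32, 7.48, 10.4 and 12.6 RPKM in tumors labeled HNF4G-KO. These overlap in the lowest tumor labeled HNF4G-KO, and the log2 fold change of 0.48 (SE 0.20, limma adjusted p = 0.132) did not pass. The difference of the MUC4 effects was 0.55 (SE 0.29, limma adjusted p = 0.636).

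**Figure D2:**
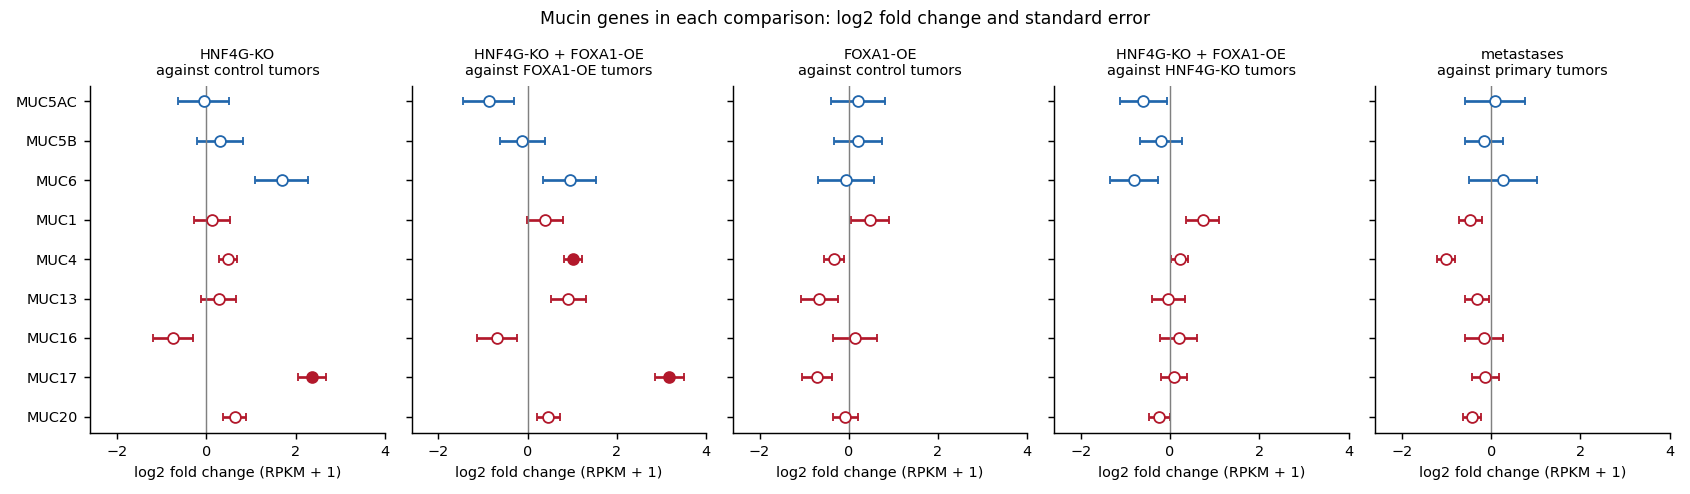
Log2 fold change on the log2(RPKM + 1) scale (dots) with its standard error (bars) for the 9 mucin genes tested, in 5 comparisons, with gel-forming mucins in blue and membrane mucins in red. Filled dots mark a limma adjusted p under 0.05, which are MUC17 in HNF4G-KO against control tumors (2.37) and MUC17 (3.18) and MUC4 (1.02) in HNF4G-KO + FOXA1-OE against FOXA1-OE tumors.

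MUC16, which carries the CA125 epitope and binds mesothelin, had lower values in tumors labeled HNF4G-KO. It was at 4.66, 7.07 and 6.03 RPKM in control tumors and at 3.03, 2.54, 3.19 and 3.69 RPKM in tumors labeled HNF4G-KO. The groups did not overlap, but the log2 fold change of -0.74 (SE 0.45, limma adjusted p = 0.283) did not pass in the fit of all tumors. In the 5 tumors labeled HNF4G-KO + FOXA1-OE, MUC16 was widely spread, at 0.952, 2.92, 1.18, 10.4 and 6.43 RPKM, on both sides of the 5.40, 6.14 and 8.38 RPKM of FOXA1-OE tumors. A fit of only HNF4G-KO and control tumors called MUC16 at the same fold change (limma adjusted p = 0.00546). That fit called 5592 of all 14269 genes tested and 4 of the 9 mucins.

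MUC20, which is known to bind the receptor MET, was at 12.1, 10.4 and 15.5 RPKM in control tumors and at 20.6, 19.0, 19.4 and 20.8 RPKM in tumors labeled HNF4G-KO. The groups did not overlap, and the log2 fold change was 0.63 (SE 0.25, limma adjusted p = 0.114, and 0.00692 in a fit of these groups alone). The fit of these groups alone called 5592 of all 14269 genes tested. The 5 tumors labeled HNF4G-KO + FOXA1-OE were split, with 26.2, 22.1 and 21.7 RPKM in tumors 1 to 3 and 12.1 and 11.2 RPKM in tumors 4 and 5, where FOXA1-OE tumors had 12.5, 13.3 and 9.96 RPKM. MUC20 overlaps the lncRNA MUC20-OT1 (chr3:195658062-195739964) on the same strand and has a pseudogene copy, MUC20P1, 100.6 kb away, so that its reads may be divided between copies. MUC20P1 was at 5.88 to 7.82 RPKM in control tumors and at 12.0 to 16.3 RPKM in tumors labeled HNF4G-KO (log2 fold change 0.98, SE 0.27, limma adjusted p = 0.0344), a call that held in 6 of 13 alternatives.

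MUC1 and MUC13 were the most abundant membrane mucins and neither was called in any comparison of tumors. MUC1 was at 101, 102 and 162 RPKM in control tumors and at 165, 86.2, 131 and 153 RPKM in tumors labeled HNF4G-KO, which overlap. It reached 299 RPKM in 1 FOXA1-OE tumor and 379 RPKM in 1 tumor labeled HNF4G-KO + FOXA1-OE. MUC13, a mucin of intestinal and ductal cells, was at 36.9 to 57.8 RPKM in control tumors, 43.8 to 70.7 RPKM in tumors labeled HNF4G-KO, 16.7 to 46.4 RPKM in FOXA1-OE tumors and 30.0 to 104 RPKM in tumors labeled HNF4G-KO + FOXA1-OE. Its log2 fold changes for the knockout label were 0.28 without and 0.91 with FOXA1-OE (limma adjusted p = 0.656 and 0.175).

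Among the gel-forming mucins no gene was called in any comparison, and MUC6 in HNF4G-KO against control was the 1 value under 0.05 before adjustment. MUC6, the mucin of gastric glands, was at 3.40, 2.05 and 0.469 RPKM in control tumors and at 8.27, 4.59, 10.2 and 8.72 RPKM in tumors labeled HNF4G-KO. Every tumor with the label was above every control tumor, with a log2 fold change of 1.68 (SE 0.59, limma adjusted p = 0.0762). It was called in a fit of only these groups (0.00706) and with the host stroma list as covariate (2.39, limma adjusted p = 0.0418), and not in the other 11 of 13 alternatives. These fits called 5592 and 3395 of all 14269 genes tested, in the same order. In HNF4G-KO + FOXA1-OE tumors MUC6 was split, at 0.499 and 0.411 RPKM in tumors 1 and 3 and at 14.5, 6.03 and 11.4 RPKM in tumors 2, 4 and 5, where FOXA1-OE tumors had 0.481, 2.94 and 1.97 RPKM.

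MUC5AC, the mucin of the gastric surface, and MUC5B, that of airway and salivary glands, showed the same split. MUC5AC was at 46.6, 55.1 and 39.4 RPKM in control tumors, at 47.8, 29.0, 52.4 and 54.9 RPKM in tumors labeled HNF4G-KO and at 37.0, 74.0 and 58.1 RPKM in FOXA1-OE tumors. In tumors 1 to 5 labeled HNF4G-KO + FOXA1-OE it was at 9.18, 79.9, 2.47, 70.9 and 66.7 RPKM, and MUC5B at 24.9, 109, 19.5, 107 and 183 RPKM. Tumors 1 and 3 were thus lowest for all 3 gel-forming mucins tested. MUC5B was at 60.2 to 70.6 RPKM in control tumors, 63.7 to 102 RPKM in tumors labeled HNF4G-KO and 44.9 to 98.5 RPKM in FOXA1-OE tumors. For the knockout label without FOXA1 the log2 fold change was -0.06 for MUC5AC and 0.30 for MUC5B (SE 0.57 and 0.51, limma adjusted p = 0.956 and 0.722). With FOXA1-OE it was -0.87 and -0.12 (limma adjusted p = 0.374 and 0.916).

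Tumors 2 and 3 labeled HNF4G-KO + FOXA1-OE came from a single mouse. MUC6 was 35.2-fold, MUC5AC 32.4-fold, MUC17 6.31-fold and MUC5B 5.57-fold higher in tumor 2. MUC4 (10.4 and 10.2 RPKM) and MUC20 (22.1 and 21.7 RPKM) were close to equal in them. These are single libraries with no replicate check. The summed RPKM of the host stroma list was 68.4 in tumor 2 and 128 in tumor 3, and that of the host pancreas list was 9.66 and 0.488, and their part in the difference was not tested.

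**Figure D3:**
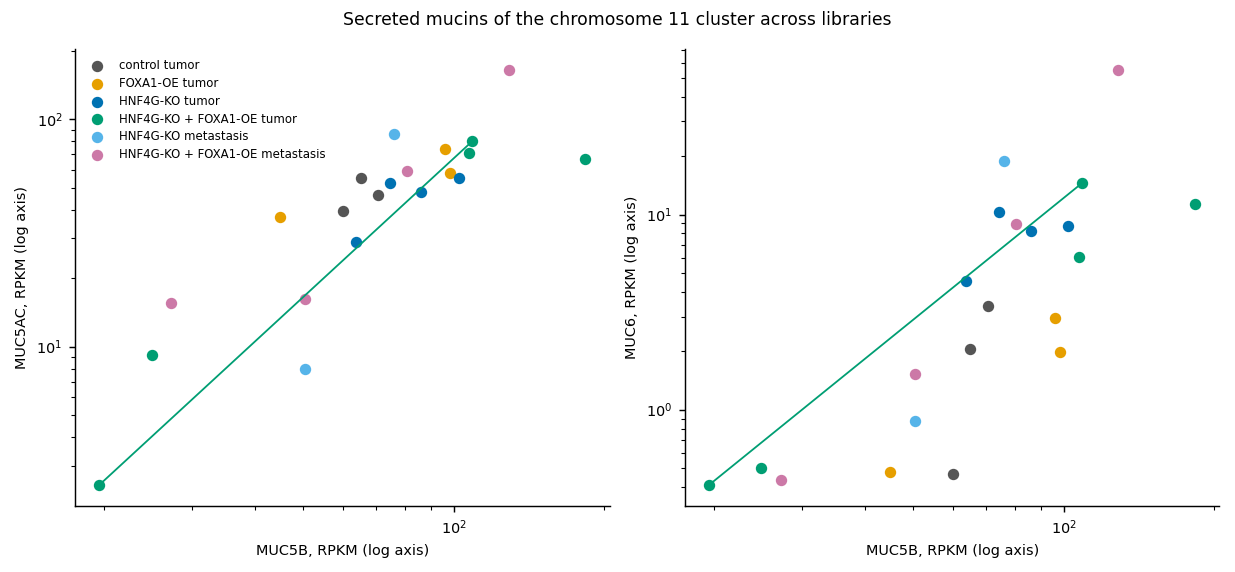
Level of MUC5AC (left) and MUC6 (right) against that of MUC5B in the 21 HPAF-II libraries, in RPKM on log axes and colored by group, with a green line that joins the 2 tumors of 1 mouse labeled HNF4G-KO + FOXA1-OE. The 3 genes rise and fall together, and the joined tumors lie far apart, at 79.9 and 2.47 RPKM for MUC5AC and at 14.5 and 0.411 RPKM for MUC6.

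Over the 21 libraries, the rank correlation (Spearman's rho) was 0.87 between MUC5AC and MUC5B, 0.82 between MUC5B and MUC6 and 0.81 between MUC5AC and MUC6. The next highest values were those of MUC13 with MUC20 (0.75) and MUC17 (0.70), of MUC16 with MUC5AC (0.67) and MUC5B (0.65), and of MUC4 with MUC2 (0.65). The lowest were those of MUC16 with MUC20 (-0.62) and MUC17 (-0.51). Several of these libraries share a mouse and all share groups, so that these values are descriptions. Among all genes tested, the 5 most like MUC5B were MUC5AC, MUC6, ENSG00000274721 (0.81), TNRC6C (0.81) and DNAH1 (0.80). Those most like MUC1 were GDPGP1 (0.85), ENSG00000237903 (0.81), SCARNA5 (0.78), CA11 (0.78) and TOR1AIP2 (0.76).

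FOXA1-OE tumors were compared with control tumors, with which the HNF4G-KO comparison shares its controls. By limma 0% of all genes tested were called at an adjusted p under 0.05 (652 had an unadjusted p under 0.05), and no mucin gene passed by either. The log2 fold changes of the 9 mucins were between -0.72 for MUC17 (SE 0.34, limma adjusted p = 0.84) and 0.47 for MUC1 (SE 0.43, limma adjusted p = 0.84). Without FOXA1-OE tumor 3, whose FOXA1 was within the control range, MUC17 was at -0.74 and MUC1 at 0.05 (limma adjusted p = 1.00 for both). For the knockout label within FOXA1-OE, the values without that tumor were 3.21 for MUC17 and 1.13 for MUC4 (limma adjusted p = 0.00115 and 0.0107).

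HNF4G-KO + FOXA1-OE tumors were further compared with HNF4G-KO tumors, where 0.0561% of all genes were called and no mucin gene had an unadjusted p under 0.05. The largest log2 fold changes were -0.80 for MUC6 (SE 0.55, limma adjusted p = 0.373), 0.74 for MUC1 (SE 0.37, limma adjusted p = 0.265) and -0.60 for MUC5AC (SE 0.52, limma adjusted p = 0.478). MUC17 was at 0.09 (SE 0.29).

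Mucins need further proteins to be made, and lists of such genes were described by their counts. The lists were chosen with earlier results of these data known, so their counts and medians are descriptions and not tests. Of 20 genes of mucus packaging and goblet cells, 16 were tested, of which 5 rose and 0 fell in tumors labeled HNF4G-KO against control, where 12.2% of all genes were called (882 higher and 854 lower). The median log2 fold change was 0.74 against 0.01 over all genes. SYTL2, which tethers secretory granules, was at 3.03 to 4.54 RPKM in control tumors and at 13.4 to 18.2 RPKM in tumors labeled HNF4G-KO (log2 fold change 1.81, SE 0.29, limma adjusted p = 0.00324). AGR3, a protein disulfide isomerase of secretory cells, was at 7.95 to 10.3 and at 33.8 to 59.1 RPKM (2.28, SE 0.38, limma adjusted p = 0.00387). These 2 calls were kept in all 13 alternatives. CREB3L1, a transcription factor of secretory cells, rose by 1.61 (SE 0.35, limma adjusted p = 0.0139, lost without control tumor 2 or 3). The trefoil peptide TFF1, which is secreted together with MUC5AC, was at 51.2 to 88.9 RPKM in control tumors and at 336 to 663 RPKM in tumors labeled HNF4G-KO (2.76, SE 0.70, limma adjusted p = 0.0247), but its call was lost in 8 of 13 alternatives, which include leaving out any control tumor.

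In HNF4G-KO + FOXA1-OE against FOXA1-OE tumors, 3 of the 16 rose and 0 fell, where 7.86% of all genes were called (474 higher and 648 lower), with a median of 0.27 against -0.03 over all genes. SYTL2 rose by 2.05 (SE 0.29, limma adjusted p = 0.00129) and CREB3L1 by 1.90 (SE 0.35, limma adjusted p = 0.00518). Both calls were kept in 15 of 16 alternatives and lost in a fit of only these groups. AGR3 and TFF1 were not called in this comparison, and their groups overlap. AGR3 was at 11.5 to 15.6 RPKM in FOXA1-OE tumors and at 1.52 to 35.0 RPKM in those labeled HNF4G-KO + FOXA1-OE. TFF1 was at 26.2 to 107 RPKM and at 6.01 to 798 RPKM in the same order. The goblet cell lectin REG4 was at 2.07 to 40.2 RPKM in FOXA1-OE tumors and at 18.9 to 388 RPKM in those labeled HNF4G-KO + FOXA1-OE, with a call (3.85, SE 1.09, limma adjusted p = 0.0456) that was kept in 5 of 16 alternatives.

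Of 24 enzymes of mucin O-glycosylation, 19 were tested. In tumors labeled HNF4G-KO against control, 4 rose and 1 fell, beside the 12.2% of all genes, with a median of 0.54 against 0.01 over all genes. ST6GALNAC1, which adds the sialic acid of the sialyl-Tn antigen, was at 19.0 to 25.3 RPKM in control tumors and at 46.2 to 67.6 RPKM in tumors labeled HNF4G-KO (1.31, SE 0.22, limma adjusted p = 0.00371, called in all 13 alternatives). GALNT12, which starts O-glycan chains, rose by 0.75 (limma adjusted p = 0.0112, lost without control tumor 3). C1GALT1, which makes the core 1 structure, rose by 0.76 (limma adjusted p = 0.0246, lost in 5 of 13 alternatives). B4GALNT3 fell by 0.80 (limma adjusted p = 0.0344, lost in 9 of 13).

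In HNF4G-KO + FOXA1-OE against FOXA1-OE tumors, 3 of the 19 enzymes rose and 2 fell, beside the 7.86% of all genes, with a median of 0.33 against -0.03 over all genes. B4GALNT3 fell by 1.04 and GALNT10 by 1.01 (limma adjusted p = 0.0126 and 0.0271), with calls kept in 15 and 10 of 16 alternatives, and neither gene was called in a fit of only these groups. FUT3, which makes Lewis antigens, rose by 1.55, and the sialyltransferase ST3GAL4 by 1.18 (limma adjusted p = 0.0333 and 0.0408), with calls kept in 9 and 10 of 16 alternatives. ST6GALNAC1 was at 16.1 to 26.1 RPKM in FOXA1-OE tumors and at 8.36 to 44.1 RPKM in those labeled HNF4G-KO + FOXA1-OE, which overlap. Of 13 partners and sheddases of membrane mucins, 0 were called by limma for HNF4G-KO against control (5 had an unadjusted p under 0.05), and CTNNB1, the catenin that binds the tail of MUC1, fell by 0.78 with FOXA1-OE (limma adjusted p = 0.0327, kept in 9 of 16 alternatives).

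Of 16 other mucin genes, 3 were tested. MUC3A, the membrane mucin at the other end of the row on chromosome 7, was at 0.847 to 1.95 RPKM in control tumors and at 2.62 to 3.66 RPKM in tumors labeled HNF4G-KO (0.82, SE 0.18, limma adjusted p = 0.0153, lost without control tumor 3). It was at 0.843 to 1.11 RPKM in FOXA1-OE tumors and at 2.48 to 5.44 RPKM in tumors labeled HNF4G-KO + FOXA1-OE (1.37, SE 0.18, limma adjusted p = 0.000931, called in all 16 alternatives). MUC12, which lies between MUC3A and MUC17, was at 0.150 to 0.647 RPKM in all 21 libraries. In the other comparisons of HPAF-II samples, 0 genes of these 4 lists were called by limma, although 11 of the 19 O-glycosylation enzymes had an unadjusted p under 0.05 in HNF4G-KO + FOXA1-OE against HNF4G-KO tumors, and 0 to 5 genes of a list did in the comparisons of FOXA1-OE with control and of metastases with tumors.

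Host cells were present in unequal amounts, as far as mouse reads aligned to the human genome show them. In each HPAF-II library 6 or 7 of the 10 host stroma markers were at 1 RPKM or more. Their summed RPKM was 96.2 to 222 in control tumors, 61.5 to 85.9 in tumors labeled HNF4G-KO, 63.7 to 181 in FOXA1-OE tumors and 61.9 to 134 in tumors labeled HNF4G-KO + FOXA1-OE. VIM, which tumor cells can also express, fell by 1.36 and by 1.08 for the knockout label without and with FOXA1-OE (limma adjusted p = 0.00255 and 0.00735). The summed host pancreas list was 881 RPKM in control tumor 2 and 7.29 to 13.1 RPKM in the other 2 control tumors, against 1.90 to 14.0 RPKM in tumors labeled HNF4G-KO. With the stroma list as covariate the log2 fold change of MUC17 was 2.81 and 3.34 in the 2 comparisons (limma adjusted p = 0.00317 and 0.00023), and without control tumor 2 it was 2.35 (limma adjusted p = 0.00896).

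Metastases were compared with the primary tumors of the 2 groups that have both, as the mean of the differences within each group. Of 14099 genes 0.135% were called, which is 19 genes, and no mucin gene, though MUC4 and MUC20 had an unadjusted p under 0.05. With the mouse as replicate block, 1 gene was called. MUC4 had the largest difference among mucins. It was at 3.10 and 3.63 RPKM in the 2 metastases labeled HNF4G-KO, below the 7.48 to 12.6 RPKM of the 4 tumors. In the other group it was at 6.06, 5.73, 10.2 and 3.81 RPKM in the 4 metastases and at 9.34 to 15.8 RPKM in the 5 tumors, so that metastasis 3 alone reached the range of the tumors. In the 4 mice with both, each metastasis was below the tumor of the same mouse. The log2 fold change was -1.02 (SE 0.20, limma adjusted p = 0.0938), and -1.11 with the mouse as replicate block (limma adjusted p = 0.166). HNF4G-KO + FOXA1-OE metastasis 3 came from a mouse with no tumor library. The log2 fold change passed in 1 of 21 alternatives, the fit without that metastasis, where it was -1.18 (limma adjusted p = 0.0272). It was -1.27 within HNF4G-KO and -0.77 within HNF4G-KO + FOXA1-OE, with a difference of 0.51 (SE 0.40, limma adjusted p = 0.503) beside a median of 0.14 over all genes. The metastases of these groups lay at different sites, so that site and group are not separated in this difference. Host markers also differed between metastases and tumors. The 6 host stroma markers tested had a median log2 fold change of 1.30, 0 were called by limma (4 had an unadjusted p under 0.05), and their list summed to 84.8 to 469 RPKM in metastases and to 61.5 to 134 RPKM in the tumors of the 2 groups. The 3 host pancreas markers tested had a median of -1.57, with insulin (INS) called lower (-1.43, limma adjusted p = 0.0495) and 0 of the 10 markers at 1 RPKM or more in any metastasis. With the stroma list as covariate MUC4 was at -1.06 (limma adjusted p = 0.218).

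MUC17 was at 11.8 and 1.56 RPKM in the 2 metastases labeled HNF4G-KO, above and below the tumors of the same mice, which were at 7.44 and 10.2 RPKM. In metastases labeled HNF4G-KO + FOXA1-OE it was at 13.2, 13.7, 13.3 and 18.0 RPKM, within the range of the tumors. The log2 fold change over both groups was -0.13 (SE 0.31, limma adjusted p = 0.953). Without HNF4G-KO metastasis 1, the single metastasis left in that group gave -1.98 (limma adjusted p = 0.00685), and the difference between the groups was 2.53 (limma adjusted p = 0.00785), with its spread taken from the other groups. The host stroma list summed to 469 RPKM in HNF4G-KO metastasis 2, in which MUC17 was low, and to 84.8 to 238 RPKM in the other 5 metastases. The parts of host cells and of the metastasis site in these values were not tested.

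**Figure D4:**
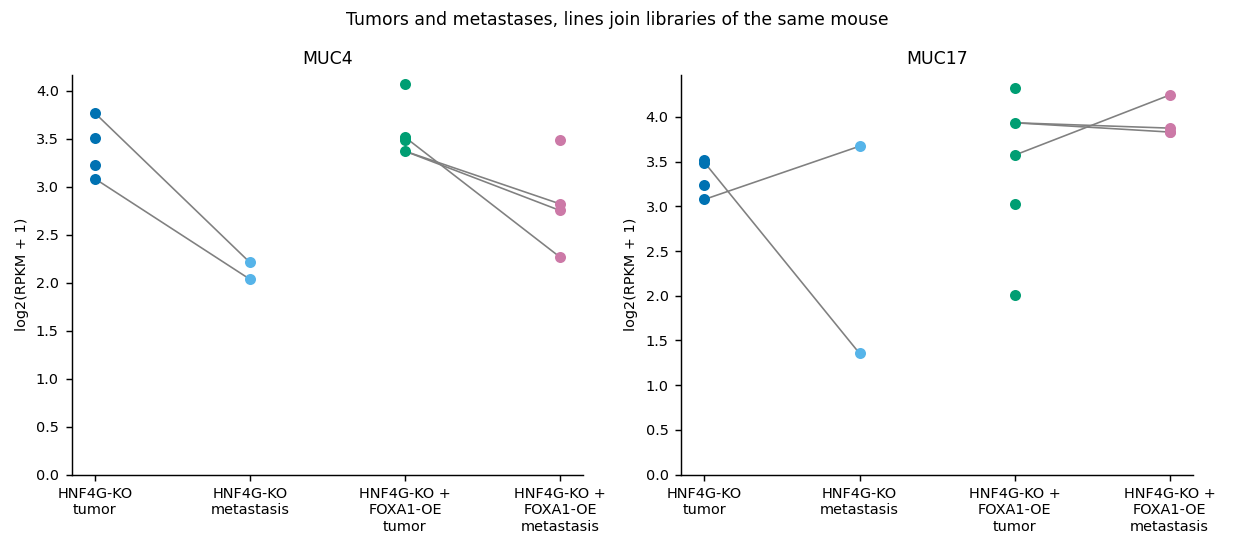
Levels of MUC4 (left) and MUC17 (right) as log2(RPKM + 1) in primary tumors and metastases of the 2 groups labeled HNF4G-KO, with lines that join libraries of the same mouse. All lines for MUC4 go down toward the metastasis, while those for MUC17 go in both directions, with 1.56 RPKM in HNF4G-KO metastasis 2 as the lowest value.

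The gel-forming mucins varied widely between metastases. MUC6 was at 0.873 and 18.7 RPKM in the 2 metastases labeled HNF4G-KO and at 1.53, 0.437, 55.0 and 8.89 RPKM in the other 4. MUC5AC was at 7.97 and 85.8 RPKM and at 16.2, 15.5, 164 and 59.4 RPKM in the same order. The metastasis with the highest MUC6 had the highest MUC5AC and, at 129 RPKM, the highest MUC5B of the metastases. Log2 fold changes against tumors were 0.26 for MUC6, 0.08 for MUC5AC and -0.15 for MUC5B (SE 0.77, 0.67 and 0.42, limma adjusted p = 0.966, 0.988 and 0.964). MUC20 was at 11.1 and 8.99 RPKM in metastases labeled HNF4G-KO, below the 19.0 to 20.8 RPKM of the tumors, and at 14.0 to 23.9 RPKM in the other group. Over both groups MUC20 was at -0.43 and MUC1 at -0.47 (SE 0.20 and 0.25, limma adjusted p = 0.571 and 0.671).

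In the KPC lines, Muc1 (ENSMUSG00000042784.9, chr3:89229057-89233381 in GRCm38) was the 1 ortholog with a mean of at least 1 RPKM. Of the 12585 genes tested 0% were called at an adjusted p under 0.05 between the liver metastasis line and the tumor line (109 had an unadjusted p under 0.05). Replicates 1 to 4 of the tumor line had 133, 148, 34.5 and 34.6 RPKM of Muc1, and those of the liver metastasis line had 39.6, 44.4, 145 and 139 RPKM. Levels of about the same height were therefore found in replicates 1 and 2 of the tumor line and 3 and 4 of the metastasis line. The log2 fold change was 0.14 over all 8 libraries (SE 0.63, limma adjusted p = 1.00). It was -1.72 in replicates 1 and 2 alone and 2.01 in replicates 3 and 4 alone (limma adjusted p = 0.00171 and 0.0343). These pairs were chosen after the values were seen, so their p-values only describe the split and test nothing. Mucl3, a mucin-like gene, followed the same order, with 6.05, 9.54, 0.975 and 1.34 RPKM in the tumor line and 1.44, 1.47, 5.37 and 5.90 RPKM in the metastasis line. Both genes thus differed between replicates 1 and 2 and replicates 3 and 4 of each line, and no direction between the lines is given. The other 8 orthologs were under 1 RPKM in all 8 libraries, with the highest values in Muc6 (0.752 RPKM) and Muc5ac (0.631 RPKM), and Muc16 was listed at 0 throughout.

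**Figure D5:**
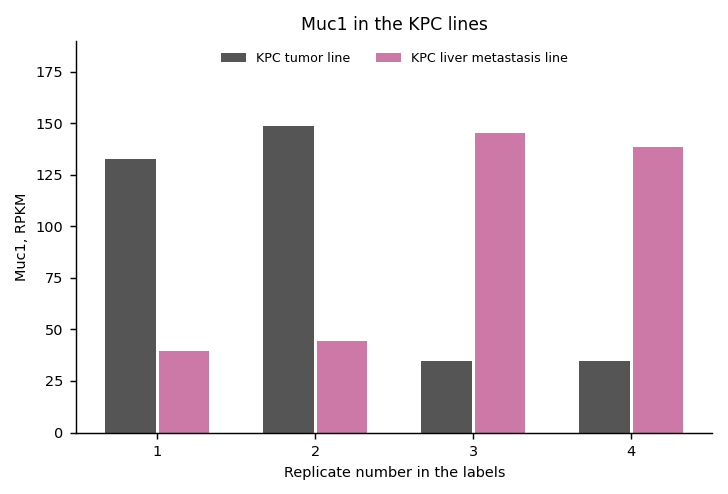
Level of Muc1 in RPKM (bars, single libraries) in the tumor line and the liver metastasis line of the KPC model, by the replicate number of the labels. The tumor line is higher in replicates 1 and 2 (133 and 148 RPKM) and the liver metastasis line in replicates 3 and 4 (145 and 139 RPKM).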

How the data were processed

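RNA-seq libraries (TruSeq stranded mRNA, 50-bp reads per the methods) were made from 21 HPAF-II xenograft samples and 8 KPC cell line samples. The authors deposited 2 tables of RPKM, for human and for mouse. The submitters' processing notes name STAR 2.6.1a, featureCounts 2.0.4 and DESeq2. The methods name GRCh37 and the labels GRCh38, and coordinates here are those of GRCh38. Whether counting used strand is not given in the sources used here. The tables were not joined, and 12 columns of the KPC table that match no sample were left out. Counted in steps of 0.5 times the commonest step, at least 99.7% of low values were whole (tolerance 0.05), which gave the depth, 33.1 to 69.6 M reads for HPAF-II and 30.1 to 44.4 M for KPC. Read counts were not used here.

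Gene IDs were matched without version, to GENCODE 44 for 58250 of 58719 human IDs and to GENCODE M21 for 54409 of 54446 mouse IDs. Log2(RPKM + 1) went into limma 3.58.1 (R 4.3.3; lmFit, eBayes with trend, Benjamini-Hochberg adjustment, threshold 0.05) for genes whose mean reached 1 RPKM, with tables and figures from Python 3.11.15. Where a mouse gave several samples of a kind, their log2 values were averaged. There were 7 comparisons. Tumor and metastasis are paired where they share an animal (correlations of deviations 0.25, 0.30, 0.27 and -0.03). The study's methods describe the replicates of its RNA-seq experiments as biological. The labels do not state separate cultures for KPC replicates, so the KPC p-values may measure technical spread. When 200 genes were shifted by 1 (log2) in simulated libraries, 55.5% were recovered for HNF4G-KO against control tumors among 14269 genes. Recovery was lowest, 18.0%, for the difference of the knockout effects and highest, 82.0%, for metastases against tumors. It was 45.5% for FOXA1-OE against control tumors.

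Named genes are the 10 mucins, HNF4G and FOXA1 as checks of the labels, up to 4 genes per list with the largest change among those called, and the 5 genes most like MUC5B and MUC1. The genes and lists were chosen with earlier results of these data known. MUC12, MUC20P1, MUCL3 and Mucl3 were named after their values were seen. Alternatives were another pseudocount, no filter, equal medians, fits of only the groups compared, replicate blocks, tumors of a mouse kept separate and leaving out each library. A host stroma covariate and the KPC replicates taken in pairs were added after seeing the data.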

Additional observations from a re-analysis of the deposited data

Results flagged for a closer look

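MUC17 in HNF4G-KO + FOXA1-OE metastasis 4, the peritoneal one, was at 18.0 RPKM, while the other 3 metastases of that group were at 13.2 to 13.7 RPKM. The gap took 0.894 of the range of the group (Dixon's test at the 95% level). MUC4 in HNF4G-KO + FOXA1-OE tumor 5 was at 15.8 RPKM, and the other 4 tumors of that group were at 9.34 to 10.4 RPKM, with a gap of 0.790 of the range. These groups are 4 libraries of 3 mice, since metastases 1 and 2 share a mouse, and 5 libraries of 4 mice, since tumors 2 and 3 do. Over the 4 mice the gap of MUC4 was again 0.790, below the limit for 4 values, and 3 mice are too few for this test. In all, 32 groups of values were examined in this way and 2 stood out, where chance gives about 1 in 20.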

How the results depend on the processing

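The call of MUC17 for the knockout label was kept in all 13 alternatives against control (log2 fold changes of 1.96 to 3.50) and in all 16 with FOXA1-OE (2.89 to 5.16). Counts of called genes moved far more. For HNF4G-KO against control tumors, 1736 genes became 5592 in a fit of only these groups (4 mucins: MUC17, MUC6, MUC20 and MUC16), 3395 with the stroma covariate (2 mucins) and 284 to 1165 when 1 library was left out, lowest without control tumor 2 and 538 without control tumor 3 (1 mucin in each). For HNF4G-KO + FOXA1-OE against FOXA1-OE tumors, 1122 became 91 in a fit of only these groups (1 mucin), 2214 with the covariate and 571 to 1439 when 1 library was left out, lowest without FOXA1-OE tumor 1. For FOXA1-OE against control it was 3 with no filter. For HNF4G-KO + FOXA1-OE against HNF4G-KO tumors, 8 became 16 with no filter, 4 with tumors of a mouse kept separate, 313 with the covariate, 0 with a pseudocount of 0.1, equal medians or only these groups, and 0 to 15 when 1 library was left out. For the difference of the knockout effects, 5 became 2 with no filter or with the covariate, 0 with a pseudocount of 0.1, equal medians or separate tumors, and 0 to 7 when 1 library was left out. For metastases, 19 became 29 with a pseudocount of 0.1, 8 with no filter, 2 with the covariate, 1 with the mouse as replicate block and 1 to 225 when 1 library was left out, highest without HNF4G-KO metastasis 1 (0 to 1 mucins). For KPC lines, replicates 1 and 2 alone gave 3174 and replicates 3 and 4 alone 81, with Muc1 the 1 mucin called in each. That split was chosen after the values were seen. The cause of these changes was not tested.

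Tumor numbers did not pair the tumors (correlations from -0.27 to 0.63). The tumor number as replicate block gave 930 genes for HNF4G-KO + FOXA1-OE against FOXA1-OE tumors, 1 against HNF4G-KO tumors and 1 for the difference, and no mucin gained or lost a call. Some small changes turned in direction. For MUC17 in HNF4G-KO + FOXA1-OE against HNF4G-KO tumors, 0.09 became -0.08 without tumor 1 and -0.20 without tumor 2, within a range from -0.20 to 0.38 over libraries left out. For MUC17 in metastases, -0.13 became 0.53 with the covariate, 0.45 without HNF4G-KO metastasis 2 and 0.01 without HNF4G-KO + FOXA1-OE tumor 2 (-0.71 to 0.45 over libraries left out), and within HNF4G-KO it became 0.34 without metastasis 2 and -1.98 without metastasis 1. Muc1 turned to -1.72 in replicates 1 and 2, and to between -0.19 and -0.13 without replicate 3 or 4 of either line (-0.19 to 0.50 over libraries left out). MUC2 was too low at this depth to compare.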

Other observations

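MUCL3, a mucin-like gene, had a mean under 1 RPKM and was not tested. It was at 0.0464, 0.0200 and 0.0285 RPKM in control tumors and at 0, 0.0138 and 0.0534 RPKM in FOXA1-OE tumors. In tumors labeled HNF4G-KO it was at 1.26, 0.946, 0.753 and 0.853 RPKM, and in those labeled HNF4G-KO + FOXA1-OE at 0.720, 1.56, 0.0955, 0.568 and 0.471 RPKM. Every tumor with the knockout label was above every tumor without it, but the closest values, 0.0955 and 0.0534 RPKM, are both very low. MUCL3 was named after its values were seen. Of all genes tested, 46.4% did not overlap between mice in HNF4G-KO against control tumors. That share was 14.6% in HNF4G-KO + FOXA1-OE against FOXA1-OE tumors. The 6 metastases ranged from 0.459 to 2.06 RPKM.

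MUC2 was at 0.0337 to 0.0919 RPKM in tumors labeled HNF4G-KO + FOXA1-OE and at 0 to 0.0123 RPKM in FOXA1-OE tumors, and these ranges do not overlap. Without FOXA1 they do, with 0.00833 to 0.0405 RPKM in control tumors and 0.0155 to 0.0283 RPKM in tumors labeled HNF4G-KO. All of these values are far below 1 RPKM, and MUC2 was not tested.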
